A study of Homo sapiens with 2 samples.

Results

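Hashtag pairs 5+8, 6+8 and 7+8 are 3 groups of OVCAR5 cells, each carrying 2 antibody hashtags, that had high IRF1 and more than 1100 CPM (UMIs scaled to a common total per pair) of CD74 in 1 pooled single-cell RNA sequencing experiment. They are described here against pair 5+7 of the same pool. A cell was kept when at least 500 genes were detected and at most 20% of its unique molecular identifiers (UMIs, counted transcripts) were mitochondrial. Its pair was the 2 most abundant of 8 hashtags, accepted when the second held at least 5 times the third plus 1 UMI. The 3 pairs held 325, 463 and 356 cells (1144 in all), against 334 cells in pair 5+7. They made up 18.7% of the 6114 cells with a pair, which came from 7201 filtered cells and 7804 barcodes, and pairs were read in 18 combinations.

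OVCAR5 is an ovarian carcinoma cell line, and the labels give all cells of the pool the same genotype, an IFNy-sensing reporter with CFP+ cells. The pool joined 18 conditions. Of these, 4 were left unstimulated and 12 received IFNy (interferon-gamma) at 1, 10 or 100 ng/ml, over 2, 6, 12 and 24 h. Another 2 were frozen cells from 24 h, 1 unstimulated and 1 at 100 ng/ml. The labels and files used here do not say which hashtags marked which condition, so the pairs are named by their hashtags and carry no dose, time or state. The pool is 1 cell line in 1 preparation, and no replicate cultures are named. Differences between pairs therefore have no replicate check, no p-value is given, and all intervals are 95% intervals that cover counting error only.

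Interferon-gamma binds a receptor of IFNGR1 and IFNGR2 chains, whose associated kinases JAK1 and JAK2 start a signal that reaches gamma-activated sites in the genome and switches on early genes, among them IRF1, itself a transcription factor that binds interferon-stimulated response elements of later genes. The later programme includes CIITA, the master activator of MHC class II genes, as well as the MHC class I peptide pathway, the guanylate-binding proteins and the chemokines that attract T cells. In tumour cells this programme governs how visible a cell is to T cells, and it also includes brakes such as IDO1 and the checkpoint ligand CD274.

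The 4 pairs were sequenced to similar depth, with 9886923, 14375040 and 10804391 UMIs in pairs 5+8, 6+8 and 7+8, against 10166666 UMIs in pair 5+7. The median cell held 29692, 29572 and 29360 UMIs in the 3 pairs, against 29737 UMIs in pair 5+7. Mitochondrial genes took a median of 12.2%, 12.3% and 12.4% of a cell's UMIs in the 3 pairs, against 11.8% in pair 5+7. The 2 leading hashtags held a median of 98.6%, 97.51% and 98.0% of hashtag UMIs, against 98.0% in pair 5+7. Just inside the hashtag rule, with a second hashtag 5 to 10 times the third, lay 6, 11 and 3 cells, against 11 cells in pair 5+7. Just outside it, at 2.5 to 5 times, lay 20, 13 and 11 cells of these combinations, against 18 of 5+7. No barcode was listed more than once.

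The cells had the keratins of a simple epithelium: KRT18 had 2118, 2082 and 2138 CPM in pairs 5+8, 6+8 and 7+8, against 2244 CPM in pair 5+7. EPCAM, an epithelial surface protein, had 44.0, 48.0 and 56.0 CPM in pairs 5+8, 6+8 and 7+8, against 67.6 CPM in pair 5+7. PAX8, a Müllerian lineage factor, was at 3.14 to 3.62 CPM in the 3 pairs, against 4.72 CPM in pair 5+7, and MUC16, which encodes CA125, had 2 UMIs in pair 5+8 and 0 in each of the other 3. T cell markers were practically absent: CD3E, CD2, IFNG and PTPRC were at 0 in all 4 pairs, and the 6 markers summed to 0, 0.139 and 0 CPM in pairs 5+8, 6+8 and 7+8, against 0 CPM in pair 5+7. The 6 myeloid markers summed to 35.3, 35.3 and 38.9 CPM in the 3 pairs, against 29.6 CPM in pair 5+7. Nearly all of that was CD68, a lysosomal protein, while TYROBP and AIF1 were at 0. Fibroblast markers summed to 0.607, 0.557 and 0.555 CPM in the 3 pairs, against 0.689 CPM in pair 5+7, and endothelial markers to 0, 0.139 and 0.370 CPM, against 0.492 CPM.

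The 2 genes that chose the pairs are given as a description only. IRF1 had 808, 1032 and 1044 CPM in pairs 5+8, 6+8 and 7+8, against 70.8 CPM in pair 5+7. CD74, the invariant chain that occupies the MHC class II groove until peptide is loaded, had 1183, 1245 and 1278 CPM in pairs 5+8, 6+8 and 7+8, against 19.5 CPM in pair 5+7. The threshold of 1100 CPM for CD74 fell between pair 5+8, the lowest inside it, and pair 2+5, which had 1039 CPM. Pair 2+5 was also high in the other interferon genes, with 894 CPM of IRF1, 213 CPM of HLA-DRA, 3292 CPM of IDO1 and 203 CPM of GBP5. The next pair outside the threshold, 5+6, had 660 CPM of CD74. High IRF1 alone did not set the 3 pairs apart: over the 14 remaining pairs IRF1 had a lowest level of 43.7, a median of 999.6 and a highest level of 1357 CPM, the highest in pair 1+6. CD74 over the same 14 pairs had a lowest level of 16.0, a median of 103 and a highest level of 1039 CPM.

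**Figure D1:**
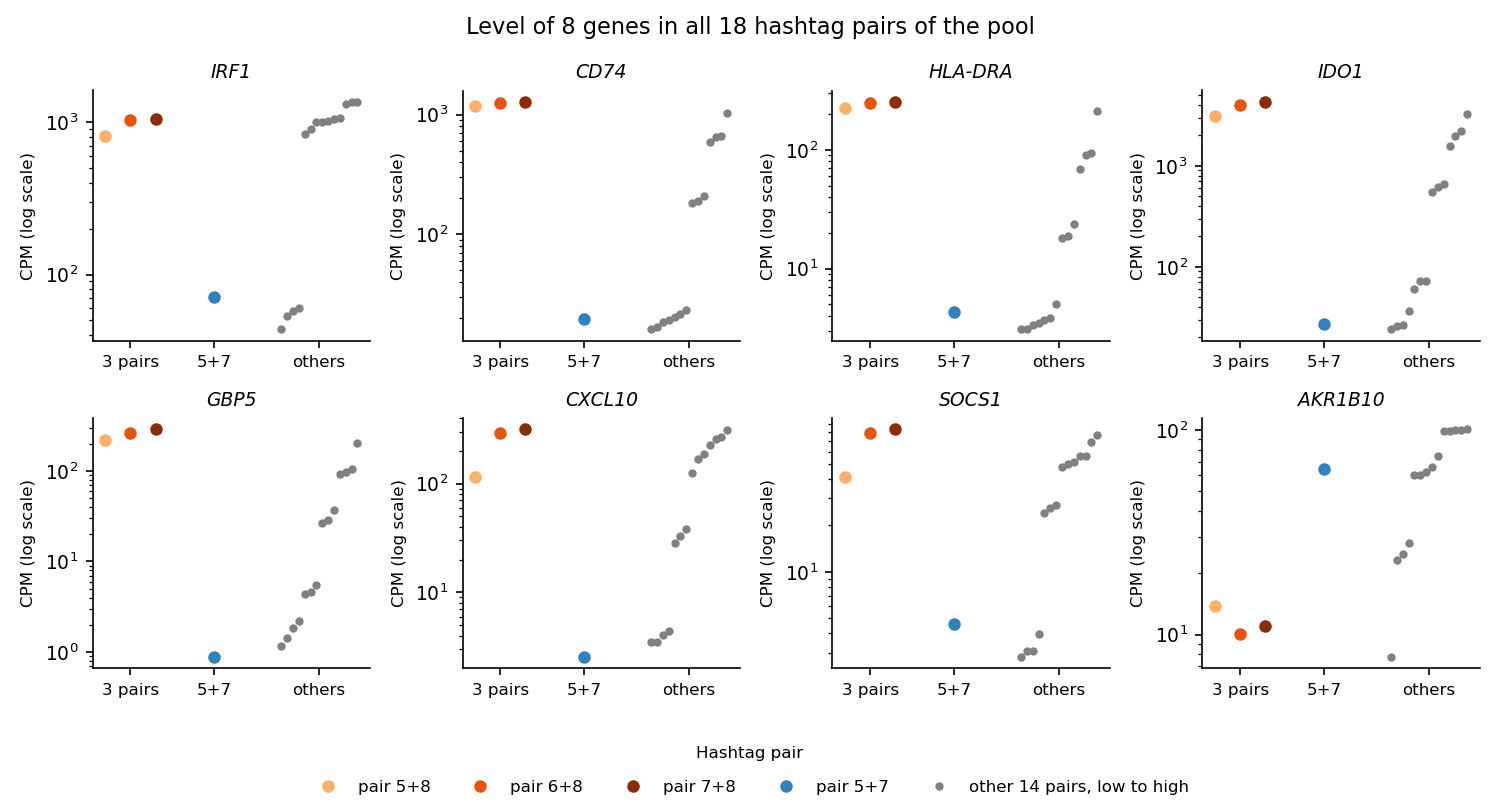
Level of 8 genes in all 18 hashtag pairs, in CPM of summed UMIs on a log axis. Coloured points are pairs 5+8, 6+8 and 7+8 (left) and pair 5+7 (middle), and grey points are the other 14 pairs in ascending order. The 3 pairs sit above all grey points for CD74, HLA-DRA, GBP5 and SOCS1 except pair 5+8 for SOCS1, and within their range for IRF1 and AKR1B10.

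Counts were compared for the 8084 genes with at least 400 UMIs over the 4 pairs, and a gene is called higher or lower at a CPM ratio of at least 2 in that direction. By this rule 234 genes (2.89%) were higher in pair 5+8, 266 (3.29%) in pair 6+8 and 280 (3.46%) in pair 7+8, each over pair 5+7. Lower by the same factor were 31 (0.383%), 49 (0.606%) and 53 genes (0.656%). In all 3 pairs, 230 genes (2.85%) were at least 2-fold higher and 23 (0.285%) at least 2-fold lower. The 230 were 98.3%, 86.5% and 82.1% of the higher genes of pairs 5+8, 6+8 and 7+8, and the 23 were 74.2%, 46.9% and 43.4% of the lower ones. Most other genes stood close together, and 76.3%, 73.7% and 73.0% of the tested genes had ratios between 0.8 and 1.25. The median ratio over all tested genes was 0.963, 0.960 and 0.957 in pairs 5+8, 6+8 and 7+8. Because the pairs were chosen on IRF1 and CD74 of these same cells, none of these counts tests anything, and counts over gene lists below are descriptions to be set beside the 2.85% for higher and the 0.285% for lower genes. The UMI minimum was summed over all 4 pairs, so a gene almost absent from pair 5+7 could pass it only through the 3 pairs.

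MHC class II genes, which present peptides to helper T cells, were among the genes with the largest ratios. All 10 genes that passed the UMI minimum, of 15 listed, were at least 2-fold higher in each pair, with a median ratio of 56.6, 60.8 and 62.1 in pairs 5+8, 6+8 and 7+8. The 15 genes together had 505 UMIs in pair 5+7, so they passed the minimum mainly through the 3 pairs. That all which passed were higher was therefore largely set by the minimum. HLA-DRA, the alpha chain of HLA-DR, had 227, 249.6 and 254 CPM in pairs 5+8, 6+8 and 7+8, against 4.33 CPM in pair 5+7. Its ratios over pair 5+7 were 52.4 (38.9 to 72.3), 57.7 (42.9 to 79.5) and 58.7 (43.6 to 81.0) in pairs 5+8, 6+8 and 7+8. CD74 had ratios of 60.8 (52.8 to 70.3), 63.9 (55.5 to 73.9) and 65.6 (57.0 to 75.9). HLA-DPA1, the alpha chain of HLA-DP, had 128, 148 and 155 CPM in pairs 5+8, 6+8 and 7+8, against 1.38 CPM in pair 5+7. Its partner HLA-DPB1 had 37.4, 45.01 and 41.7 CPM in pairs 5+8, 6+8 and 7+8, against 0.295 CPM in pair 5+7, and its level in pair 5+7 rested on 3 UMIs. HLA-DMB, a chain of the exchange factor that loads peptide, had 34.5, 37.1 and 40.1 CPM in pairs 5+8, 6+8 and 7+8, against 0.689 CPM in pair 5+7. HLA-DMA, its partner chain, already had 11.7 CPM in pair 5+7 and reached 6.97 to 8.002 times that level. CD74 was one of the genes that chose the pairs, so its distance from pair 5+7 was fixed by that choice. It also counts among the 10 class II genes, whose median ratio in each pair lies midway between those of HLA-DRA and CD74. The count and the median of the list therefore rest in part on a gene of the rule. HLA-DRA and CD74 varied by less than 1.2-fold among the 3 pairs.

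CIITA, the activator on which class II transcription depends, was a low-count gene. It had 20.6, 28.9 and 26.7 CPM in pairs 5+8, 6+8 and 7+8, against 0.295 CPM in pair 5+7, a level that rested on 3 UMIs. Its ratios were accordingly wide, at 69.9 (23.6 to 342), 98.1 (33.3 to 477) and 90.3 (30.6 to 441). RFX5, which anchors CIITA to class II promoters, had 16.6, 15.4 and 18.4 CPM in pairs 5+8, 6+8 and 7+8, against 7.67 CPM in pair 5+7. Of the 5 class II genes under the UMI minimum, HLA-DQA1 and HLA-DOA had 0 UMIs in pair 5+7. HLA-DQA1 had 3.74, 4.03 and 5.09 CPM in pairs 5+8, 6+8 and 7+8, and HLA-DOA had 5.06, 5.29 and 6.66 CPM. The lysosomal proteins that prepare class II peptides split: 4 of 9 were at least 2-fold higher in all 3 pairs. CTSS, the protease that trims CD74, had 37.4, 47.6 and 51.4 CPM in pairs 5+8, 6+8 and 7+8, against 1.08 CPM in pair 5+7. IFI30, a lysosomal thiol reductase, had 116, 138 and 133 CPM in pairs 5+8, 6+8 and 7+8, against 23.6 CPM in pair 5+7. CTSL had ratios of 3.06, 3.49 and 3.50 and LGMN, another lysosomal protease, of 2.00, 2.37 and 2.31. CTSD, a general lysosomal protease, had 279.9, 272 and 259 CPM in pairs 5+8, 6+8 and 7+8, against 333 CPM in pair 5+7. HLA genes are closely related in sequence and how shared reads were counted is not stated, so the level of a single HLA gene is less certain than that of the group.

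The MHC class I pathway, which shows peptides from inside the cell to cytotoxic T cells, was higher in large part too, by smaller factors and over higher levels in pair 5+7. All 7 class I genes that passed the minimum, of 8 listed, were at least 2-fold higher in all 3 pairs, with a median ratio of 6.89, 7.04 and 7.40. B2M, the light chain of every class I molecule, had 5843, 5626 and 5763 CPM in pairs 5+8, 6+8 and 7+8, against 1791 CPM in pair 5+7. HLA-B had 1388, 1418 and 1491 CPM in pairs 5+8, 6+8 and 7+8, against 201 CPM in pair 5+7, and its ratios were 6.89 (6.58 to 7.22), 7.04 (6.72 to 7.37) and 7.40 (7.07 to 7.75). HLA-C had ratios of 3.31, 3.34 and 3.48. HLA-E, a ligand of inhibitory receptors on natural killer cells, had 453, 481 and 518 CPM in pairs 5+8, 6+8 and 7+8, against 63.7 CPM in pair 5+7. NLRC5, the class I counterpart of CIITA, had 19.7, 23.3 and 21.8 CPM in pairs 5+8, 6+8 and 7+8, against 1.08 CPM in pair 5+7. Among the 3 pairs B2M differed by less than 4%, with a ratio of pair 7+8 over pair 5+8 of 0.986 (0.9752 to 0.998).

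In peptide supply to class I, the calls fell on interferon-inducible members and not on general chaperones. Of 14 genes, 11 were at least 2-fold higher in all 3 pairs. PSMB9, a catalytic subunit of the immunoproteasome, had 1128, 1162 and 1195 CPM in pairs 5+8, 6+8 and 7+8, against 90.9 CPM in pair 5+7. PSMB8 and PSMB10, the other 2 inducible catalytic subunits, had ratios of 6.39, 6.73 and 6.91 and of 4.15, 4.07 and 4.22. TAP1, which with TAP2 pumps peptides into the endoplasmic reticulum, had 407, 445 and 466 CPM in pairs 5+8, 6+8 and 7+8, against 22.4 CPM in pair 5+7. PSME2, a subunit of the proteasome activator PA28, had 2091, 2048 and 2105 CPM in pairs 5+8, 6+8 and 7+8, against 441 CPM in pair 5+7. The chaperones CALR, PDIA3 and CANX, which serve protein folding in general, were the 3 members without a call, and CALR had ratios of 1.09, 1.16 and 1.14. None of 14 constitutive proteasome genes reached 2-fold in any of the 3 pairs, and their median ratio was 1.26, 1.35 and 1.34. PSMB5, the constitutive subunit that PSMB8 replaces, had 417, 415 and 409.8 CPM in pairs 5+8, 6+8 and 7+8, against 433 CPM in pair 5+7. The ring subunit PSMA5 came closest to 2-fold, with ratios of 1.82, 1.93 and 1.89.

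**Figure D2:**
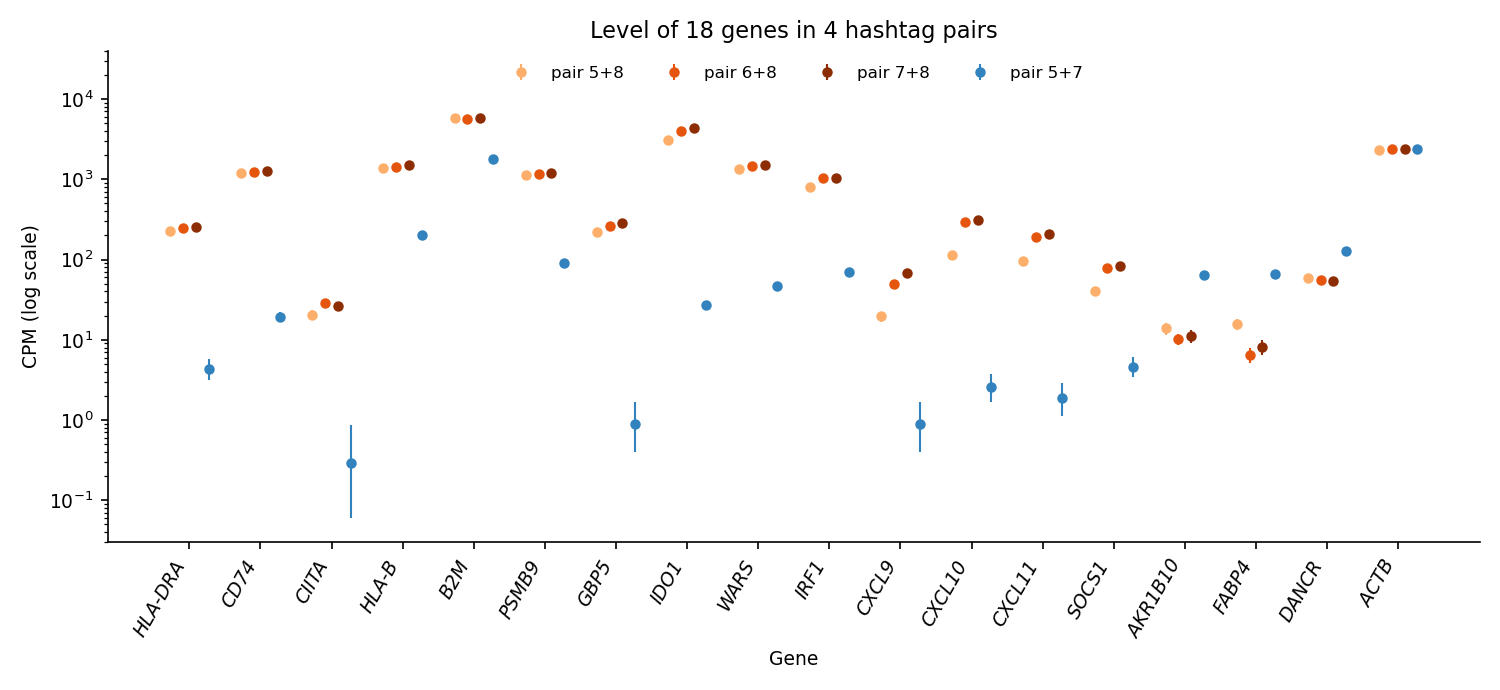
Level of 18 genes in pairs 5+8, 6+8 and 7+8 and in pair 5+7, in CPM of summed UMIs on a log axis with 95% Poisson intervals for counting error. GBP5 sits at 220 to 287 CPM in the 3 pairs against 0.885 CPM in pair 5+7, ACTB is level at 2346 to 2405 CPM against 2363 CPM, and AKR1B10, FABP4 and DANCR lie below pair 5+7.

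Guanylate-binding proteins, large GTPases that attack intracellular pathogens and their vacuoles, were high together. All 6 that passed the minimum, of 7 listed, were at least 2-fold higher in all 3 pairs, and their median ratio was 39.9, 48.4 and 49.4. The 7 together had 534 UMIs in pair 5+7, so here too the minimum was passed mainly through the 3 pairs and largely set that count. GBP5 had the largest ratio of all genes tested with at least 20 CPM in 1 of the 4 pairs, taking the smallest of the 3 ratios. It had 220.3, 265 and 287 CPM in pairs 5+8, 6+8 and 7+8, against 0.885 CPM in pair 5+7, with ratios of 249 (131 to 545), 299.7 (158 to 656) and 325 (171 to 711). Its level in pair 5+7 rested on 9 UMIs, and so the intervals were wide. GBP1 had 443, 541 and 540.1 CPM in pairs 5+8, 6+8 and 7+8, against 11.3 CPM in pair 5+7. GBP4 had 459.7, 554 and 578 CPM in pairs 5+8, 6+8 and 7+8, against 11.3 CPM in pair 5+7. GBP3 was the least different of the 6, with 126, 136 and 141 CPM in pairs 5+8, 6+8 and 7+8, against 18.4 CPM in pair 5+7. GBP6 had 0.506, 0.765 and 1.02 CPM in the 3 pairs and 0 UMIs in pair 5+7, and it was under the UMI minimum.

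IDO1, which degrades tryptophan to kynurenine, was the most abundant transcript among the 12 genes with the largest ratios. It had 3084, 3995 and 4298 CPM in pairs 5+8, 6+8 and 7+8, against 27.1 CPM in pair 5+7, and the ratios were 114 (101 to 128), 147 (131 to 166) and 158 (141 to 179). WARS, the tryptophan tRNA synthetase, had 1331, 1483 and 1517 CPM in pairs 5+8, 6+8 and 7+8, against 46.2 CPM in pair 5+7, which gave ratios of 28.8, 32.1 and 32.8. The other tryptophan pathway genes stayed under the UMI minimum, and KYNU, an enzyme further down the pathway, had 1.76 to 2.30 CPM in the 3 pairs, against 1.57 CPM in pair 5+7. Of 8 checkpoint ligands that passed, 5 were at least 2-fold higher in all 3 pairs. CD274, which encodes PD-L1, had 24.9, 31.0 and 29.2 CPM in pairs 5+8, 6+8 and 7+8, against 0.885 CPM in pair 5+7. LGALS9, a ligand of the receptor TIM-3, had 18.5, 23.4 and 25.3 CPM in pairs 5+8, 6+8 and 7+8, against 1.08 CPM in pair 5+7. CD47, the signal against phagocytosis, had 136, 158 and 154 CPM in pairs 5+8, 6+8 and 7+8, against 57.0 CPM in pair 5+7. PDCD1LG2, which encodes PD-L2, had 4.65, 3.83 and 4.63 CPM in the 3 pairs and 0 UMIs in pair 5+7. CD276 (B7-H3) had 35.6, 28.9 and 32.9 CPM in pairs 5+8, 6+8 and 7+8, against 39.9 CPM in pair 5+7.

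Among signalling genes, most transcription factors reached 2-fold and most receptor genes did not. Of 14 transcription factors that passed, 11 were at least 2-fold higher in all 3 pairs, with a median ratio of 3.67, 4.10 and 4.19. STAT2 had ratios of 5.33, 5.47 and 5.53 and IRF9, a subunit of the type I interferon complex ISGF3, of 2.99, 3.03 and 3.08. ETV7, an ETS-family repressor, had 59.6, 70.0 and 72.0 CPM in pairs 5+8, 6+8 and 7+8, against 2.66 CPM in pair 5+7. BATF2, a partner of IRF1, had 107, 129 and 138 CPM in pairs 5+8, 6+8 and 7+8, against 14.2 CPM in pair 5+7. STAT3 and IRF3 were not called, with ratios of 1.46, 1.70 and 1.79 and of 1.52, 1.502 and 1.47.

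Of the 7 receptor and JAK genes, only JAK2 was called in all 3 pairs, with 19.7, 24.6 and 28.0 CPM in pairs 5+8, 6+8 and 7+8, against 5.41 CPM in pair 5+7. IFNGR1, the ligand-binding receptor chain, had 15.6, 15.9 and 15.5 CPM in pairs 5+8, 6+8 and 7+8, against 17.9 CPM in pair 5+7. IFNGR2, the second chain, had 35.2, 31.9 and 35.4 CPM in pairs 5+8, 6+8 and 7+8, against 45.9 CPM in pair 5+7. JAK1 had 73.2, 77.4 and 76.0 CPM in pairs 5+8, 6+8 and 7+8, against 72.4 CPM in pair 5+7. Under an alternative scaling by trimmed means (TMM), IFNAR2, a chain of the type I interferon receptor, also reached 2-fold, from ratios of 1.91, 2.07 and 1.99. Of 7 negative regulators that passed, SOCS1 and USP18 were called. SOCS1, a feedback inhibitor of JAK kinases, had 41.0, 78.7 and 83.6 CPM in pairs 5+8, 6+8 and 7+8, against 4.62 CPM in pair 5+7. USP18, which strips ISG15 and dampens the type I receptor, had 18.1, 19.5 and 19.2 CPM in pairs 5+8, 6+8 and 7+8, against 3.74 CPM in pair 5+7. PTPN2, a tyrosine phosphatase of the JAK pathway, had 50.7, 57.5 and 49.3 CPM in pairs 5+8, 6+8 and 7+8, against 54.2 CPM in pair 5+7.

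Genes usually described as antiviral and shared with type I interferon were mixed. Of 24 antiviral effectors, 17 were at least 2-fold higher in all 3 pairs, with a median ratio of 3.72, 4.04 and 4.41. XAF1, a pro-apoptotic protein, had 130.1, 131 and 133 CPM in pairs 5+8, 6+8 and 7+8, against 4.43 CPM in pair 5+7. OAS2, which senses double-stranded RNA, had 43.6, 51.8 and 55.7 CPM in pairs 5+8, 6+8 and 7+8, against 1.67 CPM in pair 5+7. IFIT3, a partner of the RNA-binding IFIT proteins, had 465, 549 and 613 CPM in pairs 5+8, 6+8 and 7+8, against 118 CPM in pair 5+7. IFIT1, the cap sensor, had a smaller difference, with 63.2, 71.7 and 83.5 CPM in pairs 5+8, 6+8 and 7+8, against 45.7 CPM in pair 5+7. RSAD2, or viperin, had 12.7, 23.9 and 24.99 CPM in pairs 5+8, 6+8 and 7+8, against 13.6 CPM in pair 5+7, and MX2, which restricts nuclear import of viruses, had 31.1, 28.1 and 29.8 CPM in pairs 5+8, 6+8 and 7+8, against 28.4 CPM in pair 5+7. MX1, by comparison, had 183, 205 and 226 CPM in pairs 5+8, 6+8 and 7+8, against 23.7 CPM in pair 5+7. ISG15, a ubiquitin-like modifier, had 1588, 1632 and 1747 CPM in pairs 5+8, 6+8 and 7+8, against 585 CPM in pair 5+7, and UBE2L6, its conjugating enzyme, had 496, 509 and 540.4 CPM in pairs 5+8, 6+8 and 7+8, against 55.6 CPM in pair 5+7. HERC5, its main ligase in human cells, had 14.4, 19.2 and 22.0 CPM in pairs 5+8, 6+8 and 7+8, against 18.1 CPM in pair 5+7.

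Cells with much of a few antiviral transcripts and CCL5 were few, and their counted share was larger in the 3 pairs. At least 10 UMIs summed over RSAD2, OASL, HERC5 and CCL5 were found in 20, 35 and 27 cells of pairs 5+8, 6+8 and 7+8, against 13 cells of pair 5+7. Those were 6.15%, 7.56% and 7.58% of the cells in the 3 pairs, against 3.89% in pair 5+7. No interval was computed for these shares, which rest on 13 to 35 cells per pair. CCL5, a chemokine for T cells and monocytes, had 25.2, 12.7 and 19.8 CPM in pairs 5+8, 6+8 and 7+8, against 4.13 CPM in pair 5+7. Without these cells and a few high in SERPINB3 its ratios were 0.755, 0.330 and 1.06, so its call rested on cells chosen in part by CCL5 itself. Counts of called genes against pair 5+7 moved by less than 1.5 times when the same cells were left out.

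In the remaining interferon lists the genes called in all 3 pairs were all higher in them. All 4 APOL genes that passed, of 5 listed, were called in all 3 pairs, and APOL3 had 57.4, 66.3 and 69.7 CPM in pairs 5+8, 6+8 and 7+8, against 3.93 CPM in pair 5+7. So were all 5 genes of the PARP and DTX3L list, ADP-ribosylation and ubiquitin enzymes, where PARP14 had 415, 481 and 494 CPM in pairs 5+8, 6+8 and 7+8, against 70.9 CPM in pair 5+7. Of 8 TRIM and PML body genes, 4 were called in all 3, and TRIM22, a restriction factor, had 38.1, 52.9 and 53.0 CPM in pairs 5+8, 6+8 and 7+8, against 1.97 CPM in pair 5+7. Of 6 nucleic acid sensors that passed, 3 were called, among them the RNA sensor IFIH1 (MDA5) with ratios of 4.33, 5.07 and 5.42, while CGAS, the DNA sensor, had ratios of 1.28, 1.31 and 1.16. Of 16 cell death genes, 8 were called, and CASP1, the inflammasome caspase, had 33.3, 33.8 and 37.9 CPM in pairs 5+8, 6+8 and 7+8, against 1.87 CPM in pair 5+7. TNFSF10, the death ligand TRAIL, had 111, 135 and 149 CPM in pairs 5+8, 6+8 and 7+8, against 31.0 CPM in pair 5+7. BAX, a pore-forming death protein, had 134, 131 and 129 CPM in pairs 5+8, 6+8 and 7+8, against 139 CPM in pair 5+7. Of 7 complement genes, 3 were called, C1R and CFB among them, and CFB, factor B of the alternative pathway, had 11.0, 11.3 and 14.2 CPM in pairs 5+8, 6+8 and 7+8, against 1.38 CPM in pair 5+7. Among 10 NF-kB targets, ICAM1 and BIRC3 were called, and the adhesion molecule ICAM1 had 104, 129 and 123 CPM in pairs 5+8, 6+8 and 7+8, against 19.4 CPM in pair 5+7. Among 5 acute phase genes, SAA1, SAA2 and SOD2 were called, and SAA1, serum amyloid A, had 234, 281 and 289 CPM in pairs 5+8, 6+8 and 7+8, against 51.6 CPM in pair 5+7.

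**Figure D3:**
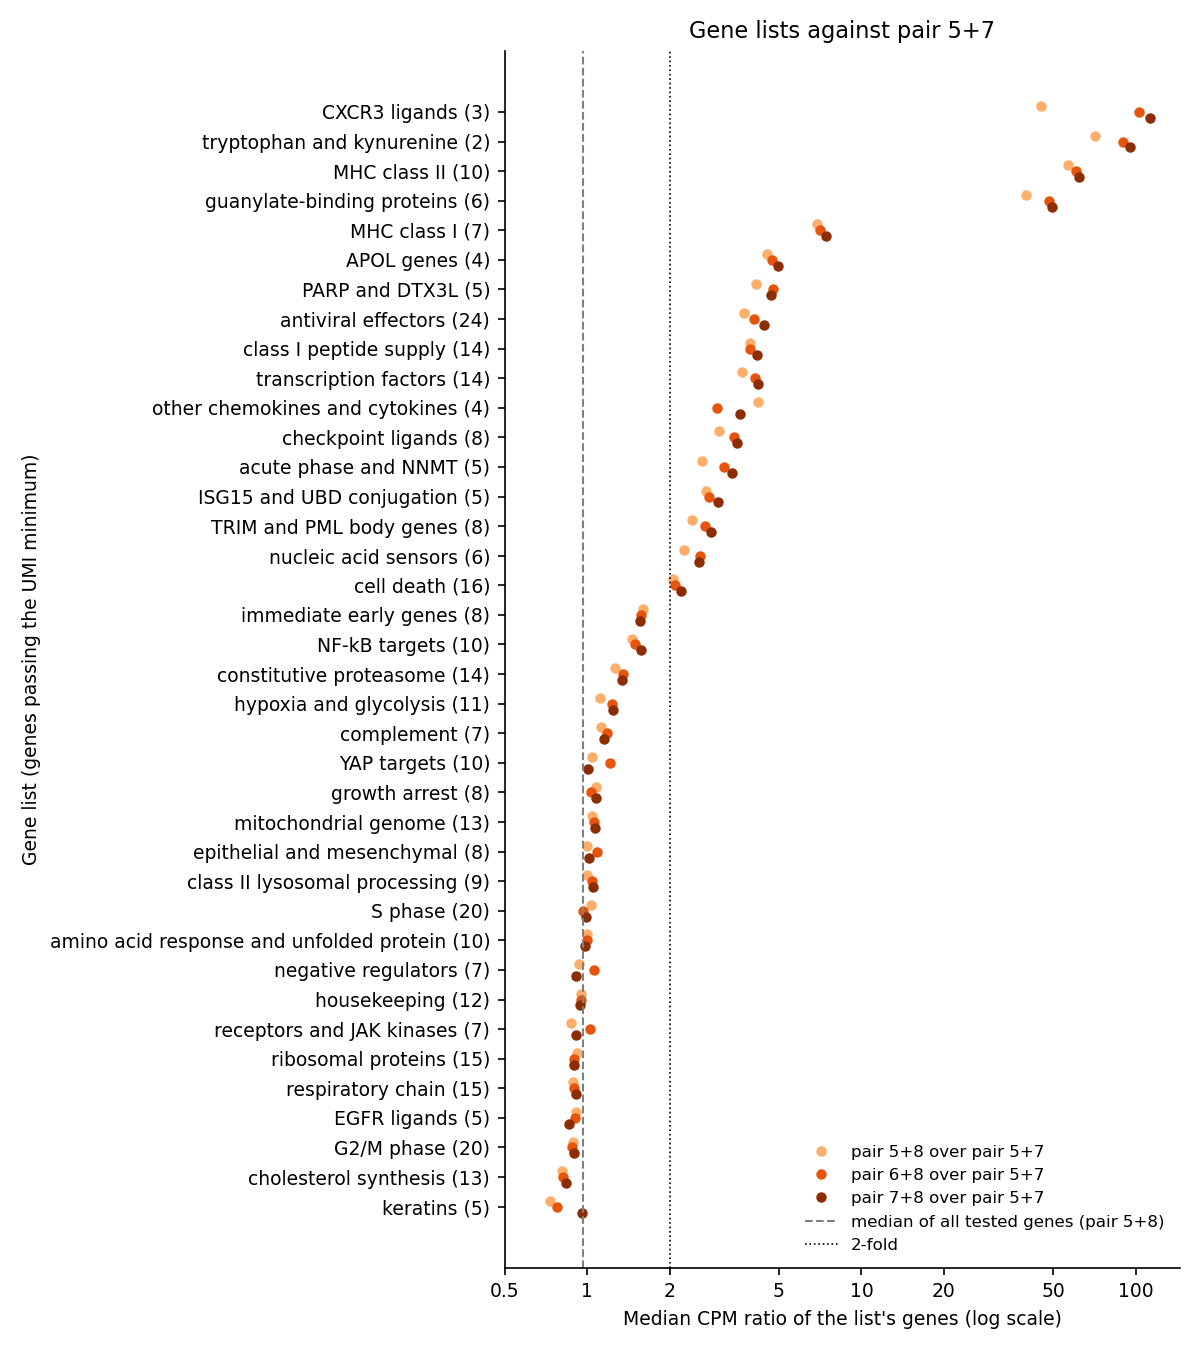
Median CPM ratio over pair 5+7 of the genes in each list, on a log axis, with 1 point each for pairs 5+8, 6+8 and 7+8. The number of genes that passed the UMI minimum stands after each list's name, the dotted line marks 2-fold and the dashed line the median of all tested genes in pair 5+8. CXCR3 ligands, tryptophan, class II and GBP lists lie furthest to the right at 39.9 to 113, and cell cycle, ribosomal, respiratory and cholesterol lists lie between 0.810 and 1.03. The class II list includes CD74, a gene that chose the pairs.

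Most lists of general cell functions had no calls in all 3 pairs. None of 20 S phase genes and none of 20 G2/M genes reached 2-fold in any pair in either direction. The median ratio of the G2/M genes was 0.890, 0.877 and 0.893, and MKI67, a proliferation marker, had 277, 247 and 273 CPM in pairs 5+8, 6+8 and 7+8, against 269 CPM in pair 5+7. None of 15 ribosomal protein genes, 15 respiratory chain genes, 13 mitochondrial genes, 13 cholesterol synthesis genes or 12 housekeeping genes reached 2-fold either. No gene was called in all 3 pairs, in either direction, among 8 growth arrest, 8 immediate early, 10 YAP target, 5 EGFR ligand, 10 amino acid response, 5 keratin and 8 epithelial and mesenchymal genes, except that 1 immediate early gene was called under TMM scaling. ACTB had 2346, 2405 and 2400.1 CPM in pairs 5+8, 6+8 and 7+8, against 2363 CPM in pair 5+7. Under TMM scaling the medians of the S phase, keratin, housekeeping, amino acid response, epithelial and lysosomal lists moved to the other side of 1, and no direction is read from them. Among EGFR ligands, AREG (amphiregulin) had 173, 148 and 140.4 CPM in pairs 5+8, 6+8 and 7+8, against 312 CPM in pair 5+7, which passed 2-fold in pairs 6+8 and 7+8 and fell short of it in pair 5+8. THBS1, a YAP target, had 16.8, 15.9 and 13.9 CPM in pairs 5+8, 6+8 and 7+8, against 31.1 CPM in pair 5+7, and only pair 7+8 passed 2-fold. Of 11 hypoxia and glycolysis genes, NDRG1 and ADM were called, and ADM, the vasodilator adrenomedullin, had 56.7, 54.1 and 55.9 CPM in pairs 5+8, 6+8 and 7+8, against 26.4 CPM in pair 5+7.

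The chemokines CXCL9, CXCL10 and CXCL11, which attract T cells through the receptor CXCR3, were high in all 3 pairs and also differed among them. CXCL10 had 115, 295 and 315 CPM in pairs 5+8, 6+8 and 7+8, against 2.56 CPM in pair 5+7. CXCL11 had 96.1, 193 and 211 CPM in pairs 5+8, 6+8 and 7+8, against 1.87 CPM in pair 5+7. CXCL9 had 19.5, 50.2 and 68.4 CPM in pairs 5+8, 6+8 and 7+8, against 0.885 CPM in pair 5+7. The ratios over pair 5+7 were 45.1, 115 and 123 for CXCL10, 51.4, 103 and 113 for CXCL11 and 22.1, 56.7 and 77.3 for CXCL9, and the levels in pair 5+7 rested on 26, 19 and 9 UMIs. Pair 5+8 was thus the lowest of the 3 for each ligand, while pairs 6+8 and 7+8 lay close together for CXCL10 and CXCL11. Among other cytokines, IL32, an inflammatory cytokine, had 79.3, 90.8 and 98.6 CPM in pairs 5+8, 6+8 and 7+8, against 5.61 CPM in pair 5+7, and IL15, which sustains T and natural killer cells, had 19.6, 24.7 and 20.8 CPM in pairs 5+8, 6+8 and 7+8, against 8.66 CPM in pair 5+7.

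The promoters of genes at both ends of this contrast are shown because the 3 ligands and SOCS1 separated pair 5+8 from pairs 6+8 and 7+8 by 1.92-fold or more, while IRF1 and CD74, the genes of the rule, differed by less than 1.3-fold. Each sequence runs 5′ to 3′ from 250 bases before to 50 bases after the start of the gene in RefSeq on GRCh38.p14, all on the minus strand. The windows lie at chr5:132490724-132491023 (IRF1), chr16:11256155-11256454 (SOCS1), chr4:76007460-76007759 (CXCL9), chr4:76023448-76023747 (CXCL10), chr4:76036021-76036320 (CXCL11) and chr5:150412861-150413160 (CD74). Capitals mark matches to the gamma-activated site TTCNNNGAA, to the interferon-stimulated response element GAAANNGAAA and to the CCAAT box, searched on both strands, with no overlaps among the matches shown.
IRF1: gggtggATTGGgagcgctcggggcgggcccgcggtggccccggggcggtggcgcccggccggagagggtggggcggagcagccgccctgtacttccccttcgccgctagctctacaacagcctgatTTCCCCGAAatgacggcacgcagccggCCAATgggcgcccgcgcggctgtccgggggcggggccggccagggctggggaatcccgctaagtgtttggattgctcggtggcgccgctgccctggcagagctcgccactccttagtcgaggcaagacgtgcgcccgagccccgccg
SOCS1: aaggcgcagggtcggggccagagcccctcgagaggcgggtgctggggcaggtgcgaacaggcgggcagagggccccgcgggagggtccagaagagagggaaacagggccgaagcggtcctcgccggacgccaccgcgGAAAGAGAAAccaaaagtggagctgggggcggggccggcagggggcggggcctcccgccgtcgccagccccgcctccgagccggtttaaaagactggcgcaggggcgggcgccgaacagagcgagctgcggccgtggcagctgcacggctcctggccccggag
CXCL9: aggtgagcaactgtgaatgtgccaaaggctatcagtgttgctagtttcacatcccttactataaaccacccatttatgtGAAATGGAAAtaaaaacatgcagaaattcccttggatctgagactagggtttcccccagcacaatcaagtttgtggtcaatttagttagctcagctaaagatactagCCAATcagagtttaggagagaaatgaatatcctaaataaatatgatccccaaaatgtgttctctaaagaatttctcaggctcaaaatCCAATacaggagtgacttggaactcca
CXCL10: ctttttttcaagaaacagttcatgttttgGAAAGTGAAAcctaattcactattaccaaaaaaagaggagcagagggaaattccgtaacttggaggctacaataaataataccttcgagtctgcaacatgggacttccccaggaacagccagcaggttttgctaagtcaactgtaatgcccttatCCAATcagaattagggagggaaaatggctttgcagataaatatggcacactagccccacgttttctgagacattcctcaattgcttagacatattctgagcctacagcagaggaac
CXCL11: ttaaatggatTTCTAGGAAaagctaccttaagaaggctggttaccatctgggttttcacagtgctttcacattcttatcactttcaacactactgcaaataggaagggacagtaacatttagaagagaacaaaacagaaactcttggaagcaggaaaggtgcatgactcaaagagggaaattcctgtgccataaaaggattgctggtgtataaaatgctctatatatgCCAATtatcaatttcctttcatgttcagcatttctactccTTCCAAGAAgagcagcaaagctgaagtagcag
CD74: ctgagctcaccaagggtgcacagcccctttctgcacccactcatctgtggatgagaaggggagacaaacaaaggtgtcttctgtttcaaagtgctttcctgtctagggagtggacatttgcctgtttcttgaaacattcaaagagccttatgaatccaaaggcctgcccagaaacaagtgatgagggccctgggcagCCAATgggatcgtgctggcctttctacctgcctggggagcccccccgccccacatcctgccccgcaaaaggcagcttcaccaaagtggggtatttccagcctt

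In these windows IRF1 held 1 gamma-activated site match, TTCCCCGAA, whose first base lay 124 bases before the start. CXCL11 held 2, TTCTAGGAA at 240 bases before the start and TTCCAAGAA just after it. The response element was matched once each in SOCS1 (GAAAGAGAAA, 113 bases before the start), CXCL9 (GAAATGGAAA, 171 bases) and CXCL10 (GAAAGTGAAA, 221 bases). The CD74 window held neither of these motifs and 1 CCAAT match, 53 bases before the start. Of 27305 promoters of the same length in the table, 7.88% held the gamma-activated site letters, 3.65% the response element letters and 35.7% a CCAAT match. Of the 6547 promoters that matched a tested gene, the shares were 6.64%, 3.25% and 37.5%. A share over the called genes is not given, since only 165 of the 230 (71.7%) had an entry. A match is a description of letters and not of binding.

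Differences among the 3 pairs were few. They did not enter the rule beyond high IRF1 and the CD74 threshold, which all 3 met, but the rule was set with earlier results of these data known. Pair 6+8 had 4 genes (0.0495%) at least 2-fold above pair 5+8, which were CXCL9, CXCL10, CXCL11 and PAEP, and 1 gene (0.0124%) at least 2-fold below it, FABP4. Pair 7+8 had 7 genes (0.0866%) at least 2-fold above pair 5+8 and none below. Those 7 were CXCL9, CXCL10, CXCL11, SOCS1, KRT81, PMEPA1 and MESP1. Between pairs 7+8 and 6+8, PAEP alone was 2-fold lower in pair 7+8 (0.0124%) and none was higher. The share of tested genes with a ratio between 0.8 and 1.25 was 96.9% for pair 6+8 over pair 5+8 and 95.4% for pair 7+8 over pair 5+8.

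CXCL9 had 50.2 CPM in pair 6+8 and 68.4 CPM in pair 7+8, against 19.5 CPM in pair 5+8. Its ratios over pair 5+8 were 2.57 (2.19 to 3.03) in pair 6+8 and 3.50 (2.99 to 4.13) in pair 7+8. For CXCL10 those ratios were 2.56 (2.39 to 2.73) and 2.73 (2.554 to 2.92), and for CXCL11 they were 2.01 (1.87 to 2.17) and 2.19 (2.03 to 2.37). SOCS1 had 78.7 CPM in pair 6+8 and 83.6 CPM in pair 7+8, against 41.0 CPM in pair 5+8, with ratios of 1.92 (1.71 to 2.16) and 2.04 (1.81 to 2.30). No single cell carried these differences, since without the cell with the most UMIs in each pair the ratios of pair 7+8 over pair 5+8 were 3.43 for CXCL9, 2.76 for CXCL10, 2.26 for CXCL11 and 2.04 for SOCS1.

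The genes of the rule and the markers differed less among the pairs. IRF1 had ratios over pair 5+8 of 1.28 (1.24 to 1.31) in pair 6+8 and 1.29 (1.26 to 1.33) in pair 7+8. IDO1 had 1.295 (1.28 to 1.31) and 1.39 (1.37 to 1.41), and GBP5 had 1.20 (1.14 to 1.27) and 1.305 (1.23 to 1.38). HLA-DRA had 1.10 (1.04 to 1.16) and 1.12 (1.06 to 1.18). By list, the median ratio of pair 7+8 over pair 5+8 was 2.73 for the 3 CXCR3 ligands, 1.24 for GBP genes, 1.15 for class II genes and 1.07 for class I genes. Pair 7+8 was thus the highest of the 3 for the ligands, GBP5 and IDO1, and the 3 pairs were nearly level for class I genes.

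For several of the other genes called among the 3 pairs, single cells or a small set of cells held much of the total. KRT81, a hair keratin, had 129 CPM in pair 6+8 and 215 CPM in pair 7+8, against 73.9 CPM in pair 5+8, but pair 5+7 had 178 CPM. Its UMIs came from 40, 55 and 28 cells in pairs 5+8, 6+8 and 7+8, against 39 cells in pair 5+7, and 1 cell held 34.6%, 14.2% and 24.5% of them, against 24.6%. Without the highest cell of each pair the ratio of pair 7+8 over pair 5+8 was 3.36. Cells with at least 10 UMIs summed over SERPINB3, SERPINB4, PCSK1N, TFPI2 and ZFHX4 were 3, 5 and 4 in the 3 pairs, against 6 in pair 5+7, and they held 79.9%, 55.7% and 57.3% of KRT81 UMIs, against 85.5%. Without these and the antiviral cells KRT81 had 15.9, 62.4 and 101.8 CPM in pairs 5+8, 6+8 and 7+8, against 27.4 CPM in pair 5+7, and its ratio of pair 7+8 over pair 5+8 was 6.41. PMEPA1, a target and inhibitor of TGF-beta signalling, had 21.6 CPM in pair 6+8 and 33.6 CPM in pair 7+8, against 15.4 CPM in pair 5+8. Pair 5+7 had more of it than any of the 3, at 38.0 CPM. One cell held 33.6% of PMEPA1 UMIs in pair 7+8, and without the highest cell of each pair the ratio of pair 7+8 over pair 5+8 was 1.67. PAEP, a secreted lipocalin of the reproductive tract, had 41.1% of its UMIs in pair 6+8 from 1 cell, and its ratio of pair 6+8 over pair 5+8 without the highest cells was 1.68. MESP1, a bHLH transcription factor, had a ratio of pair 7+8 over pair 5+8 of 1.99 without them. With all cells it had 6.98 CPM in pair 5+8 and 14.5 CPM in pair 7+8, against 14.1 CPM in pair 5+7. FABP4 had a ratio of pair 6+8 over pair 5+8 of 0.408 (0.312 to 0.532), and of 0.454 without the highest cells. At the low end, the 5 genes with the smallest ratios of pair 7+8 over pair 5+8 were FABP4 at 0.514, DDIT3 at 0.639, PPP2R2B at 0.652, DEXI at 0.667 and RDH10 at 0.688, none of them 2-fold lower, while FABP4 was at 0.487 without the highest cells.

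**Figure D4:**
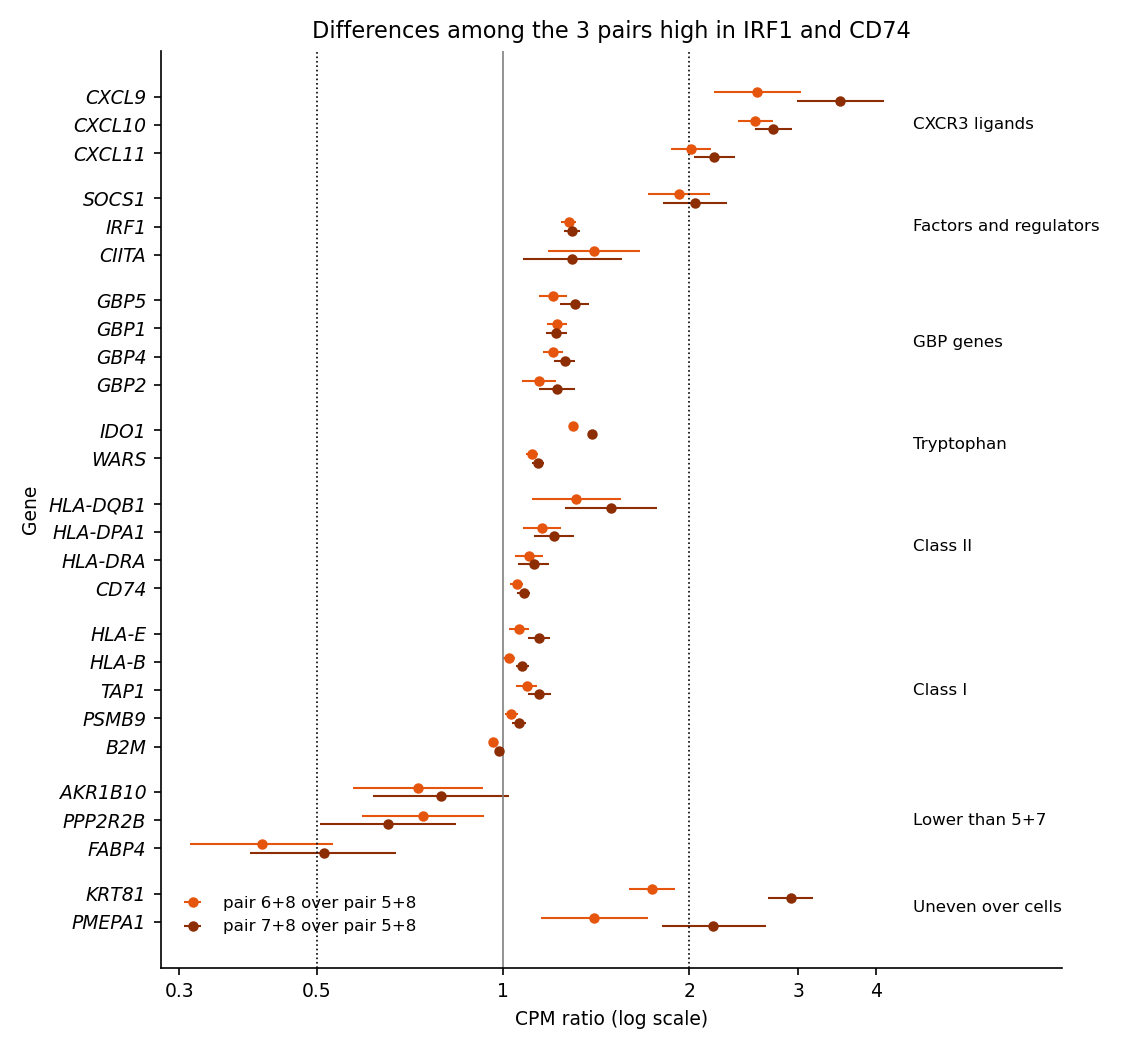
CPM ratios of pairs 6+8 and 7+8 over pair 5+8 for single genes, on a log axis with 95% intervals for counting error. The solid line marks equal levels and the dotted lines a factor of 2. The CXCR3 ligands reach 2.01 to 3.50, SOCS1 reaches 1.92 and 2.04, and class I, class II and most other interferon genes lie between 0.96 and 1.5.

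The differences reached most cells for some genes and a minority for others. To compare cells at the same depth, each cell was reduced to 10000 UMIs at random, which left out 7, 8 and 11 cells of pairs 5+8, 6+8 and 7+8 and 8 cells of pair 5+7. IDO1 was then detected in 99.1%, 100.0% and 99.7% of cells in pairs 5+8, 6+8 and 7+8, against 23.3% in pair 5+7 (unthinned 100.0%, 99.8% and 100.0%, against 50.3%). HLA-DRA was detected in 71.4%, 77.4% and 77.4% of cells in pairs 5+8, 6+8 and 7+8, against 1.53% in pair 5+7 (unthinned 87.4%, 92.2% and 89.6%, against 7.78%). The exact binomial interval for HLA-DRA was 66.1 to 76.3% in pair 5+8 and 0.4998 to 3.54% in pair 5+7. Free RNA from the other cells of the pool can put UMIs into droplets of cells that do not express a gene, and the share in pair 5+7 gives the most that it can have added there. GBP5 was detected in 64.5%, 70.1% and 71.9% of cells in pairs 5+8, 6+8 and 7+8, against 0.920% in pair 5+7 (unthinned 78.5%, 82.3% and 83.1%, against 2.69%). CIITA was detected in 18.6%, 22.2% and 22.0% of cells in pairs 5+8, 6+8 and 7+8, against 0.307% in pair 5+7 (unthinned 40.9%, 51.4% and 50.8%, against 0.898%). The median cell held 30, 40 and 43 UMIs of IDO1 out of 10000 in the 3 pairs, against 0 in pair 5+7, and the 10th to 90th percentiles of the 3 pairs spanned 11 to 54, 19 to 64 and 19.4 to 68.6 UMIs. Nearly every cell of the 3 pairs thus carried IDO1.

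The CXCR3 ligands were concentrated. CXCL10 was detected in 28.0%, 47.7% and 44.1% of cells in pairs 5+8, 6+8 and 7+8, against 3.68% in pair 5+7 (unthinned 39.4%, 59.4% and 58.1%, against 7.78%). The 10% of cells with the most CXCL10 held 73.5%, 56.1% and 62.0% of its UMIs in pairs 5+8, 6+8 and 7+8. For IDO1 the 10% of cells with the most of it held 21.6%, 19.03% and 18.2%. CXCL9 was detected in 10.7%, 20% and 24.6% of cells in pairs 5+8, 6+8 and 7+8, against 1.53% in pair 5+7 (unthinned 18.8%, 30.9% and 39.0%, against 2.69%), and CXCL11 in 39.3%, 56.7% and 57.7% of cells in pairs 5+8, 6+8 and 7+8, against 1.53% in pair 5+7 (unthinned 56.3%, 75.8% and 75.6%, against 5.39%). SOCS1, an intracellular protein, was detected in 30.5%, 47.9% and 51.6% of cells in pairs 5+8, 6+8 and 7+8, against 4.29% in pair 5+7 (unthinned 58.8%, 79.5% and 78.7%, against 12.3%). For all 4 of these genes the thinned share in pair 5+8 lay below both other pairs. For CXCL10 the exact binomial interval, for counting over cells and not for cultures, was 43.0 to 52.4% in pair 6+8 and 38.7 to 49.5% in pair 7+8, against 23.1 to 33.3% in pair 5+8.

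**Figure D5:**
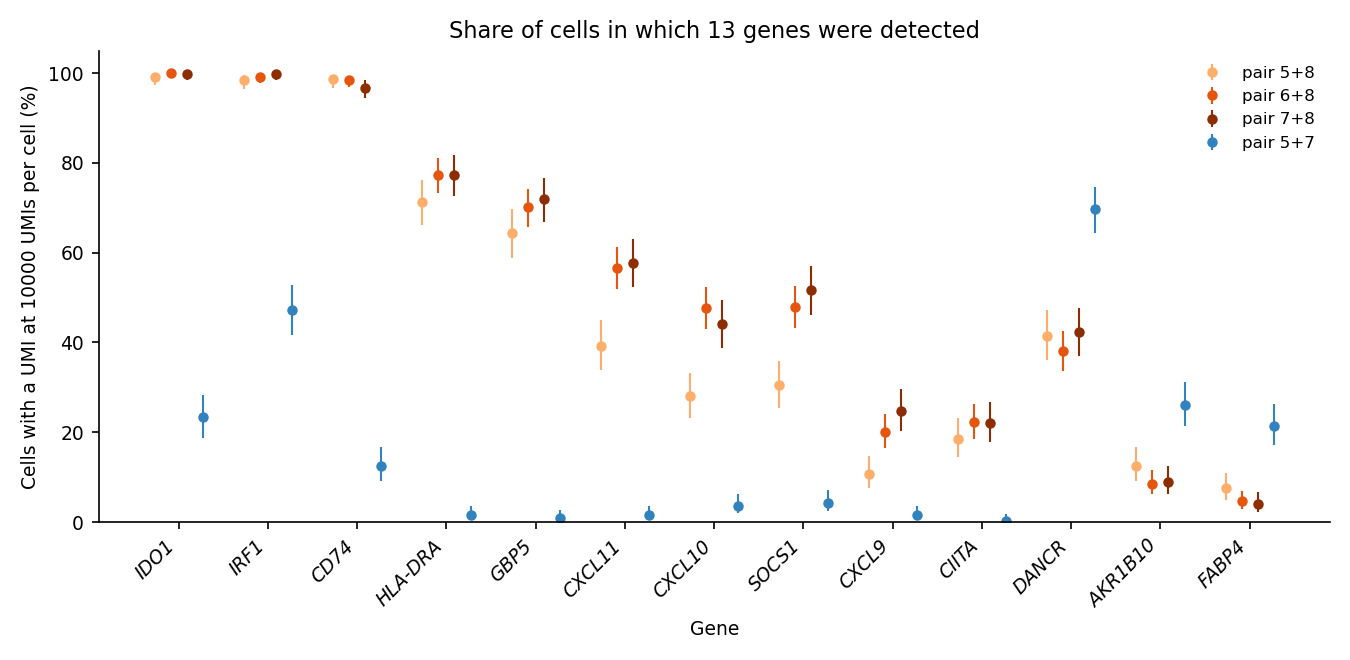
Share of cells with at least 1 UMI of 13 genes after each cell was thinned to 10000 UMIs, in percent with exact 95% binomial intervals, for pairs 5+8, 6+8 and 7+8 and for pair 5+7. IDO1 is found in 99.1 to 100% of cells in the 3 pairs against 23.3% in pair 5+7, and AKR1B10, FABP4 and DANCR are the genes with the larger share in pair 5+7.

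Lower levels in the 3 pairs were fewer and smaller, and reached 2-fold in all 3 for 23 genes. The 12 with the smallest ratios, ranked by the largest of their 3 ratios among genes with at least 20 CPM in 1 of the 4 pairs, were led by AKR1B10, an aldo-keto reductase that reduces aldehydes and retinal. It had 13.9, 10.1 and 11.0 CPM in pairs 5+8, 6+8 and 7+8, against 64.3 CPM in pair 5+7, and its ratios were 0.215 (0.178 to 0.259), 0.157 (0.130 to 0.188) and 0.171 (0.140 to 0.208). FABP4, a fatty acid carrier known from adipocytes, had 15.7, 6.40 and 8.05 CPM in pairs 5+8, 6+8 and 7+8, against 65.9 CPM in pair 5+7, and its ratios were 0.238 (0.198 to 0.284), 0.0971 (0.0772 to 0.121) and 0.122 (0.0966 to 0.153), the smallest of the 23 in pairs 6+8 and 7+8. AKR1C3, a reductase of steroids and prostaglandins, had 13.5, 13.9 and 14.7 CPM in pairs 5+8, 6+8 and 7+8, against 42.0 CPM in pair 5+7. GCLC, the catalytic subunit of the first enzyme of glutathione synthesis, had 18.3, 18.8 and 18.05 CPM in pairs 5+8, 6+8 and 7+8, against 40.7 CPM in pair 5+7. PPP2R2B, a regulatory subunit of phosphatase 2A, had 15.5, 11.5 and 10.1 CPM in pairs 5+8, 6+8 and 7+8, against 46.4 CPM in pair 5+7. TRIM16L, a TRIM16-related gene, had 17.7, 15.2 and 13.4 CPM in pairs 5+8, 6+8 and 7+8, against 47.7 CPM in pair 5+7. AKR1C and TRIM16 genes have near-identical relatives, and the split of reads between those is uncertain.

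AGR2, a disulfide isomerase of secretory cells, had 10.2, 8.77 and 8.42 CPM in pairs 5+8, 6+8 and 7+8, against 27.0 CPM in pair 5+7. CLDN10, a tight junction claudin, had 22.6, 19.8 and 21.0 CPM in pairs 5+8, 6+8 and 7+8, against 55.5 CPM in pair 5+7. DANCR, a long non-coding RNA that hosts small nucleolar RNAs, had 58.7, 55.5 and 53.4 CPM in pairs 5+8, 6+8 and 7+8, against 129.6 CPM in pair 5+7. It was the most abundant of the 23 in pair 5+7. HOTAIRM1, a long non-coding RNA of the HOXA cluster, had 7.28, 6.68 and 5.65 CPM in pairs 5+8, 6+8 and 7+8, against 23.5 CPM in pair 5+7. SGK2, a kinase of the glucocorticoid-regulated family, had 7.48, 4.80 and 5.65 CPM in pairs 5+8, 6+8 and 7+8, against 23.4 CPM in pair 5+7, and SMIM6 had 6.27, 5.77 and 5.65 CPM in pairs 5+8, 6+8 and 7+8, against 24.1 CPM in pair 5+7. HMOX1, which degrades haem, was among the 23 outside the first 12, with 14.6, 12.7 and 11.8 CPM in pairs 5+8, 6+8 and 7+8, against 30.0 CPM in pair 5+7. Several of these calls depended on the low pair. Pair 3+5, the low pair of another trio, had 8.65 CPM of HOTAIRM1, 17.9 of AGR2, 32.9 of GCLC and 18.5 of HMOX1. Against pair 3+5 these were not 2-fold lower in all 3 pairs. AKR1B10, AKR1C3, FABP4, CLDN10 and DANCR had 62.0, 32.6, 101, 48.1 and 121.6 CPM in pair 3+5 and were. Under TMM scaling 15 genes, in place of 23, were at least 2-fold lower in all 3 pairs.

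At the level of cells, DANCR was detected in 41.5%, 38.0% and 42.3% of cells in pairs 5+8, 6+8 and 7+8, against 69.6% in pair 5+7 (unthinned 69.8%, 68.9% and 68.5%, against 91.3%). AKR1B10 was detected in 12.6%, 8.57% and 8.99% of cells in pairs 5+8, 6+8 and 7+8, against 26.1% in pair 5+7 (unthinned 22.2%, 19.01% and 18.8%, against 43.1%). FABP4 was detected in 7.55%, 4.62% and 4.06% of cells in pairs 5+8, 6+8 and 7+8, against 21.5% in pair 5+7 (unthinned 12.9%, 12.1% and 12.6%, against 31.4%). Across the other 14 pairs AKR1B10 ranged widely, with 7.79 CPM in pair 2+5 and 100.5 CPM in pair 2+4. The levels of the 3 pairs lay within that range only because of pair 2+5, since the next lowest, pair 3+7, had 23.1 CPM. HLA-DRA had a lowest level of 3.07, a median of 11.5 and a highest level of 213 CPM over the same 14 pairs. That highest level was also in pair 2+5, and its interval (201 to 226 CPM) overlapped that of pair 5+8 (217 to 236 CPM).

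Other trios of pairs in the pool were set against a low pair of their own in the same way. Over pair 3+5, with 8145 genes tested, pairs 3+7, 4+7 and 5+6 had 203 genes higher and 14 lower in all 3. Over pair 2+4, with 7839 genes tested, pairs 2+6, 2+8 and 3+4 had 168 and 2. Over pair 1+2, with 7748 genes tested, pairs 1+3, 1+4 and 1+6 had 52 and 1. The 230 and 23 of pairs 5+8, 6+8 and 7+8 over pair 5+7, with 8084 genes tested, were the largest of these 4 counts in both directions. These 3 pairs were chosen for CD74 over 1100 CPM, so that rank is not independent of the choice. No gene was at least 2-fold higher in all 3 pairs here and at least 2-fold lower throughout another trio, or the reverse. B2M, at 5626 to 5843 CPM in the 3 pairs, against 1791 CPM in pair 5+7, had a highest level of 5174 CPM among the other 14 pairs. For CXCL10 the highest of those pairs, 3+4, had 309 CPM, which lay above pairs 5+8 and 6+8 and below pair 7+8.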

How the data were processed

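Gene expression and hashtag libraries of 1 pool were measured. The authors deposited raw UMI counts per feature and barcode. Per the file headers, Cell Ranger 5.0.1 made the matrix. Cell Ranger 2.1.1 and the build GRCh38 stand in the submitters' processing notes, and which version applies was not resolved. The hashtag rows are named HTO1 to HTO8 and carry no condition.

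Cells had 500 or more genes and no more than 20% mitochondrial UMIs, and pairs were read from the 8 hashtag rows. The filter removed 603 barcodes and the pair rule 1087 cells, and no other doublet caller was run, so doublets within a pair cannot be seen. Summed UMIs of a pair were scaled by its total to CPM, with no other normalisation. Ratios carry exact conditional intervals and levels exact Poisson intervals. Counts under 3 were set to 3. Free RNA was not subtracted. Shares used Clopper-Pearson intervals. With 1 sample per group no test was run. Alternatives changed the hashtag rule, the filter on cells, thinning, TMM scaling (edgeR 4.0.16, R 4.3.3), totals without mitochondrial genes, the UMI minimum, the fold, the low pair and the removal of cells high in 2 gene sets. Calculations were tested on simulated data with Python 3.11.15, numpy 2.4.6 and scipy 1.17.1.

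The pairs, lists and rules were chosen with earlier results of these data known. The naming rule took the markers and genes of the pair rule, the 12 genes with the largest and the 12 with the smallest ratios, the 5 with the largest and the 5 with the smallest ratios of pair 7+8 over pair 5+8, and the 4 most abundant members of each of 43 lists. Other genes were named after their values had been seen, and a few genes of the lists are not reported here.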

Additional observations from a re-analysis of the deposited data

Results flagged for a closer look

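The markers were also higher for combinations 5+8, 6+8 and 7+8 than for 5+7 among barcodes that the comparisons above left out. Cells whose 2 leading hashtags formed one of the pairs but in which another hashtag was too high numbered 78, 70 and 61 for combinations 5+8, 6+8 and 7+8, against 74 for 5+7. They held a median of 49200, 54046 and 53727 UMIs for the 3 combinations, against 46979 UMIs for 5+7, above the median of cells with an accepted pair. IDO1 had 1742, 2113 and 2570 CPM in these cells of 5+8, 6+8 and 7+8, against 792 CPM in those of 5+7. HLA-DRA had 123, 127 and 133 CPM, against 51.9 CPM, and GBP5 had 111, 136 and 170.1 CPM, against 32.0 CPM. The 5+7 combination thus had more of each marker among these cells than among the accepted cells of pair 5+7, and the 3 others had less than their accepted cells.

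Barcodes that failed the filter on genes or mitochondrial share numbered 28, 31 and 33 for 5+8, 6+8 and 7+8, against 20 for 5+7. They held a median of 6068, 5987 and 5235 UMIs, against 6410 UMIs. IDO1 had 607, 1753 and 2485 CPM in them, against 6.43 CPM for 5+7, a level that rested on 1 UMI (0.163 to 35.8 CPM). HLA-DRA had 70.7, 138 and 255 CPM, against 0 CPM, and GBP5 had 100.2, 299.6 and 282 CPM, against 0 CPM. For both genes the upper limit in 5+7 was 23.7 CPM, and the HLA-DRA level in 5+8 rested on 12 UMIs. Mitochondrial UMIs were a large share of the total in these barcodes. Scaled to the other UMIs alone, IDO1 had 2466, 4035 and 5872 CPM, against 12.6 CPM, HLA-DRA had 287, 316 and 601 CPM, against 0 CPM, and GBP5 had 407, 689 and 667 CPM, against 0 CPM.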

How the results depend on the processing

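Scaling, cell filter and hashtag rule moved few counts by more than 1.5 times. TMM scaling shifted the median log2 ratio of all genes by 0.09, 0.10 and 0.09 in pairs 5+8, 6+8 and 7+8 and left 15 genes lower in all 3 pairs, with 260 higher. With 1000 or more genes and no more than 15% mitochondrial UMIs per cell, 2 genes were higher in pair 6+8 than in pair 5+8 and 0 were lower in pair 7+8 than in pair 6+8. For pair 7+8 under pair 6+8 the count was also 0 without the cells high in the antiviral or SERPINB3 sets. With pair 3+5 in place of pair 5+7, 253 genes were higher and 27 lower in all 3. The 27 did not include HOTAIRM1, AGR2, GCLC and HMOX1, which were lower against pair 5+7.

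Counts followed the UMI minimum. Thinned to 10000 UMIs, with 4526 genes tested, 6 genes were lower in pair 5+8, 174 higher and 13 lower in pair 6+8, 181 higher and 16 lower in pair 7+8, and 151 higher and 1 lower in all 3, while 0 were lower in pair 6+8 than in pair 5+8, 0 lower in pair 7+8 than in pair 6+8 and 4 higher in pair 7+8 than in pair 5+8. With at least 100 UMIs (11262 genes), 364 were higher and 133 lower in pair 5+8, 413 and 179 in pair 6+8, 428 and 200 in pair 7+8, and 66 were lower in all 3. Among the pairs this gave 25 higher and 9 lower for pair 6+8 over 5+8, 5 and 13 for 7+8 over 6+8, and 29 and 11 for 7+8 over 5+8. With at least 2000 UMIs (3189 genes), 122 were higher and 3 lower in pair 5+8, 133 and 7 in pair 6+8, 139 and 7 in pair 7+8, and 121 and 2 in all 3, with 2 higher and 0 lower for 6+8 over 5+8, 0 lower for 7+8 over 6+8 and 4 higher for 7+8 over 5+8. With no minimum (22697 genes) the counts were 680 and 817, 723 and 1069, and 765 and 925 for the 3 pairs, 453 and 300 in all 3, and 312 and 363, 393 and 289, and 373 and 286 among the pairs, most of them genes of few UMIs. At 1.5-fold, 452 were higher and 237 lower in pair 5+8, 490 and 286 in pair 6+8, and 498 and 307 in pair 7+8, and at 4-fold 107 and 2, 117 and 5, and 118 and 6.

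Of 3612 recomputed ratios of 172 named genes, 2957 stayed within their counting interval and 651 moved outside it. Another 4 changed sides of 1, which was counted only for ratios that were at least 2-fold higher or lower at first. Smaller ratios that crossed 1 were counted as within or outside their interval. Those 4 were CCL5 without the marked cells, at 0.755 in pair 5+8 and 0.330 in pair 6+8, a set that holds CCL5 itself, and TDO2 (tryptophan dioxygenase, at most 10 UMIs in a pair) with pair 3+5 as the low pair, at 1.88 in pair 6+8 and 1.498 in pair 7+8. Alternatives chosen after seeing the data were leaving out the highest cell of each pair, and leaving out the marked cells in ratios among the 3 pairs. The first gave 3.36 for KRT81 and 1.67 for PMEPA1 (pair 7+8 over 5+8), and 1.68 (6+8 over 5+8) and 0.574 (7+8 over 6+8) for PAEP. The marked cells moved KRT81 most, to 6.41 (7+8 over 5+8). No paired analysis was possible because the pool is 1 sample and its pairs have no replicates. Depth limits genes of few UMIs in pair 5+7, whose ratios are wide, and no interval covers variation between cultures.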

Other observations

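Of the 230 genes at least 2-fold higher in all 3 pairs, 117 belonged to a list and 113 did not, and the following were picked from those 113 by size after their values had been seen. EPSTI1, an interferon-induced gene, had 162, 184 and 206 CPM in pairs 5+8, 6+8 and 7+8, against 5.11 CPM in pair 5+7. IL18BP, the secreted inhibitor of interleukin-18, had 97.50, 122 and 126 CPM in pairs 5+8, 6+8 and 7+8, against 3.34 CPM in pair 5+7. TNFSF13B, the B cell survival factor BAFF, had 68.9, 85.4 and 89.9 CPM in pairs 5+8, 6+8 and 7+8, against 3.93 CPM in pair 5+7. SECTM1, a ligand of CD7 on T and natural killer cells, had 53.5, 74.5 and 83.9 CPM in pairs 5+8, 6+8 and 7+8, against 3.54 CPM in pair 5+7. APOBEC3G, a cytidine deaminase that restricts retroviruses, had 39.1, 38.3 and 43.3 CPM in pairs 5+8, 6+8 and 7+8, against 1.97 CPM in pair 5+7. BTN3A2, a butyrophilin of the family recognised by gamma-delta T cells, had 67.5, 61.6 and 68.8 CPM in pairs 5+8, 6+8 and 7+8, against 13.4 CPM in pair 5+7. LAP3, a cytosolic leucine aminopeptidase, had 335, 398 and 429 CPM in pairs 5+8, 6+8 and 7+8, against 54.5 CPM in pair 5+7.

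After the lower genes had been seen, a list of 26 genes known as targets or regulators of NRF2, the transcription factor of the response to electrophiles and oxidants, was drawn up, so its values are a description and support nothing. Of the 23 that passed the UMI minimum, 5 were at least 2-fold lower in all 3 pairs (AKR1B10, AKR1C3, GCLC, HMOX1 and TRIM16L) and 0 were higher, against 0.285% of all tested genes lower in all 3, and under TMM scaling 4 were lower. In all, 20 of 23 had a ratio under 1 in all 3 pairs, against 48.9% of all tested genes, and 18 of 23 did so under TMM scaling, against 32.4%. GCLC and HMOX1 were not 2-fold lower in all 3 pairs when pair 3+5 was the low pair. The median ratio of the 23 over pair 5+7 was 0.709, 0.656 and 0.625 in pairs 5+8, 6+8 and 7+8. NQO1, a quinone reductase, had 465, 431 and 447 CPM in pairs 5+8, 6+8 and 7+8, against 657 CPM in pair 5+7. TXNRD1, thioredoxin reductase, had 448, 428 and 409 CPM in pairs 5+8, 6+8 and 7+8, against 668 CPM in pair 5+7. NFE2L2, which encodes NRF2, had ratios of 1.07, 1.05 and 1.02, and KEAP1, its repressor, of 1.13, 1.10 and 1.17.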
